A study of Mus musculus with 27 samples.

Results

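The growth hormone and insulin-like growth factor (IGF) axis of mouse liver was followed through 9 genes, namely the receptor gene Ghr, the transducer Stat5b, the feedback inhibitors Socs2 and Cish, the hormone Igf1, its serum carrier Igfals, and the binding proteins Igfbp1, Igfbp2 and Igfbp4. Probes were taken where the platform annotation lists exactly 1 of these symbols, and kept probes of one gene were averaged on the log2 scale. All 9 genes had a kept probe, out of 6478 genes with one. Kept means that the mean of a probe passed log2(100), or 6.64, in at least 1 diet, and 6.64 is called the detection level below.

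Growth hormone binds its receptor on hepatocytes, the receptor-bound kinase Jak2 phosphorylates Stat5b, and Stat5b enters the nucleus and switches on Igf1, Igfals, Socs2 and Cish. The proteins made from Socs2 and Cish bind the receptor complex and damp its signal. In male rodents the pituitary releases growth hormone in pulses, and Stat5b activity in liver follows them. Liver is the main source of circulating Igf1, which travels in a complex with the acid-labile subunit made from Igfals and with Igfbp3. Igfbp1 is a short-lived binding protein that insulin represses and fasting raises, and Igfbp2 and Igfbp4 bind IGFs in blood and tissue.

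Livers of 27 male C57BL/6 mice were profiled on Affymetrix mouse expression arrays, each liver on its own array, with n = 3 for each of 9 diets. The methods give the mice as 10 weeks of age at purchase, followed by 3 weeks on a diet. The restricted mice received 75% of the ad libitum amount of a natural-ingredient chow, and the other mice ate freely of lab chow, a 60% fructose diet, a high-fat diet, a Western diet with 42% from fat, an atherogenic diet with cholesterol and cholic acid, a diet deficient in essential fatty acids (EFA-deficient), a low n-3 diet or the purified AIN-93 control diet. The methods state that mice were killed in the morning without a fast, and they give the control diet the least protein of the 8 formulas. For the low n-3 arrays, the title and the diet tag name a DHA supplement, whereas sunflower oil and low n-3 appear in the description alone, so the identity of this diet rests on that description.

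The values are log2 intensities normalized by GCRMA. Medians of the kept probes lay between 8.22 and 8.38 on the 27 arrays, and on each array 34.9% to 38.0% of its 45101 probes sat at the floor of 2.29, common to all arrays. Of the 10 hepatocyte markers listed, 10 were detected, with a summed log2 level of 18.25 to 18.49 on every array, and none of the 5 cholangiocyte, 4 adipocyte or 4 pancreatic acinar markers that a probe names alone was detected. Kupffer cell markers were detected for 10 of 12 genes, and their summed log2 level was 13.16 to 13.98 on the atherogenic arrays, 10.84 to 11.49 on the Western arrays and 11.82 to 12.27 on the control arrays. In bulk liver, fewer cells of a type and less RNA per cell cannot be told apart. Precision is limited throughout by there being 3 arrays for each diet.

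Across the 9 diets, 5 of the 9 genes varied by the moderated F test of limma, Ghr (adjusted p = 7.21e-06), Igfbp1 (adjusted p = 0.000374), Igfbp2 (adjusted p = 0.000728), Igfals (adjusted p = 0.00484) and Igfbp4 (adjusted p = 0.00782). The same test called 71.6% of all kept genes, so a call in 5 of 9 is no more than the background. Igf1 (adjusted p = 0.117), Stat5b (adjusted p = 0.139), Socs2 (adjusted p = 0.388) and Cish (adjusted p = 0.612) did not pass.

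Against AIN-93 control, diet restriction had the most calls among the 9 genes, with Igfbp1 and Igfbp2 higher and Ghr lower, where 13.5% of all kept genes were higher and 16% lower. That diet also had the most calls over all genes, 1914 of 6478, so its rank among the 9 genes is that of the background. The atherogenic diet raised Igfbp2 and lowered Ghr, with 9.03% of genes higher and 5.88% lower. The EFA-deficient diet raised Igfbp1 and lowered Ghr, with 3.04% of genes higher and 2.47% lower. The receptor transcript was thus called lower on 3 diets, together with higher Igfbp1, Igfbp2 or both. The atherogenic and EFA-deficient Ghr calls were lost without single arrays, as was the EFA-deficient Igfbp1 call. High fructose lowered Igfals alone, with 1.17% of genes higher and 2.73% lower, and high fat raised Igfbp4 alone, with 6% higher and 3.33% lower. On lab chow, the Western diet and the low n-3 diet, 0 of the 9 genes were called by limma, 0 had an unadjusted p under 0.05, and Dunnett's test also called 0. The shares of all genes there were 2.02% higher and 2.19% lower on lab chow, 4.31% and 4.48% on the Western diet, and 0.34% and 0.726% on the low n-3 diet. These 8 comparisons share the 3 control arrays. The split between higher and lower depended on the scaling of the arrays. With arrays centred on their medians it was 135 genes higher and 111 lower on high fructose, against 76 and 177 as deposited, and 490 and 496 on the atherogenic diet, against 585 and 381. The calls split likewise into 179 and 102 on lab chow (131 and 142 as deposited), 347 and 240 on Western (279 and 290), and 50 and 31 on low n-3 (22 and 47).

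**Figure D1:**
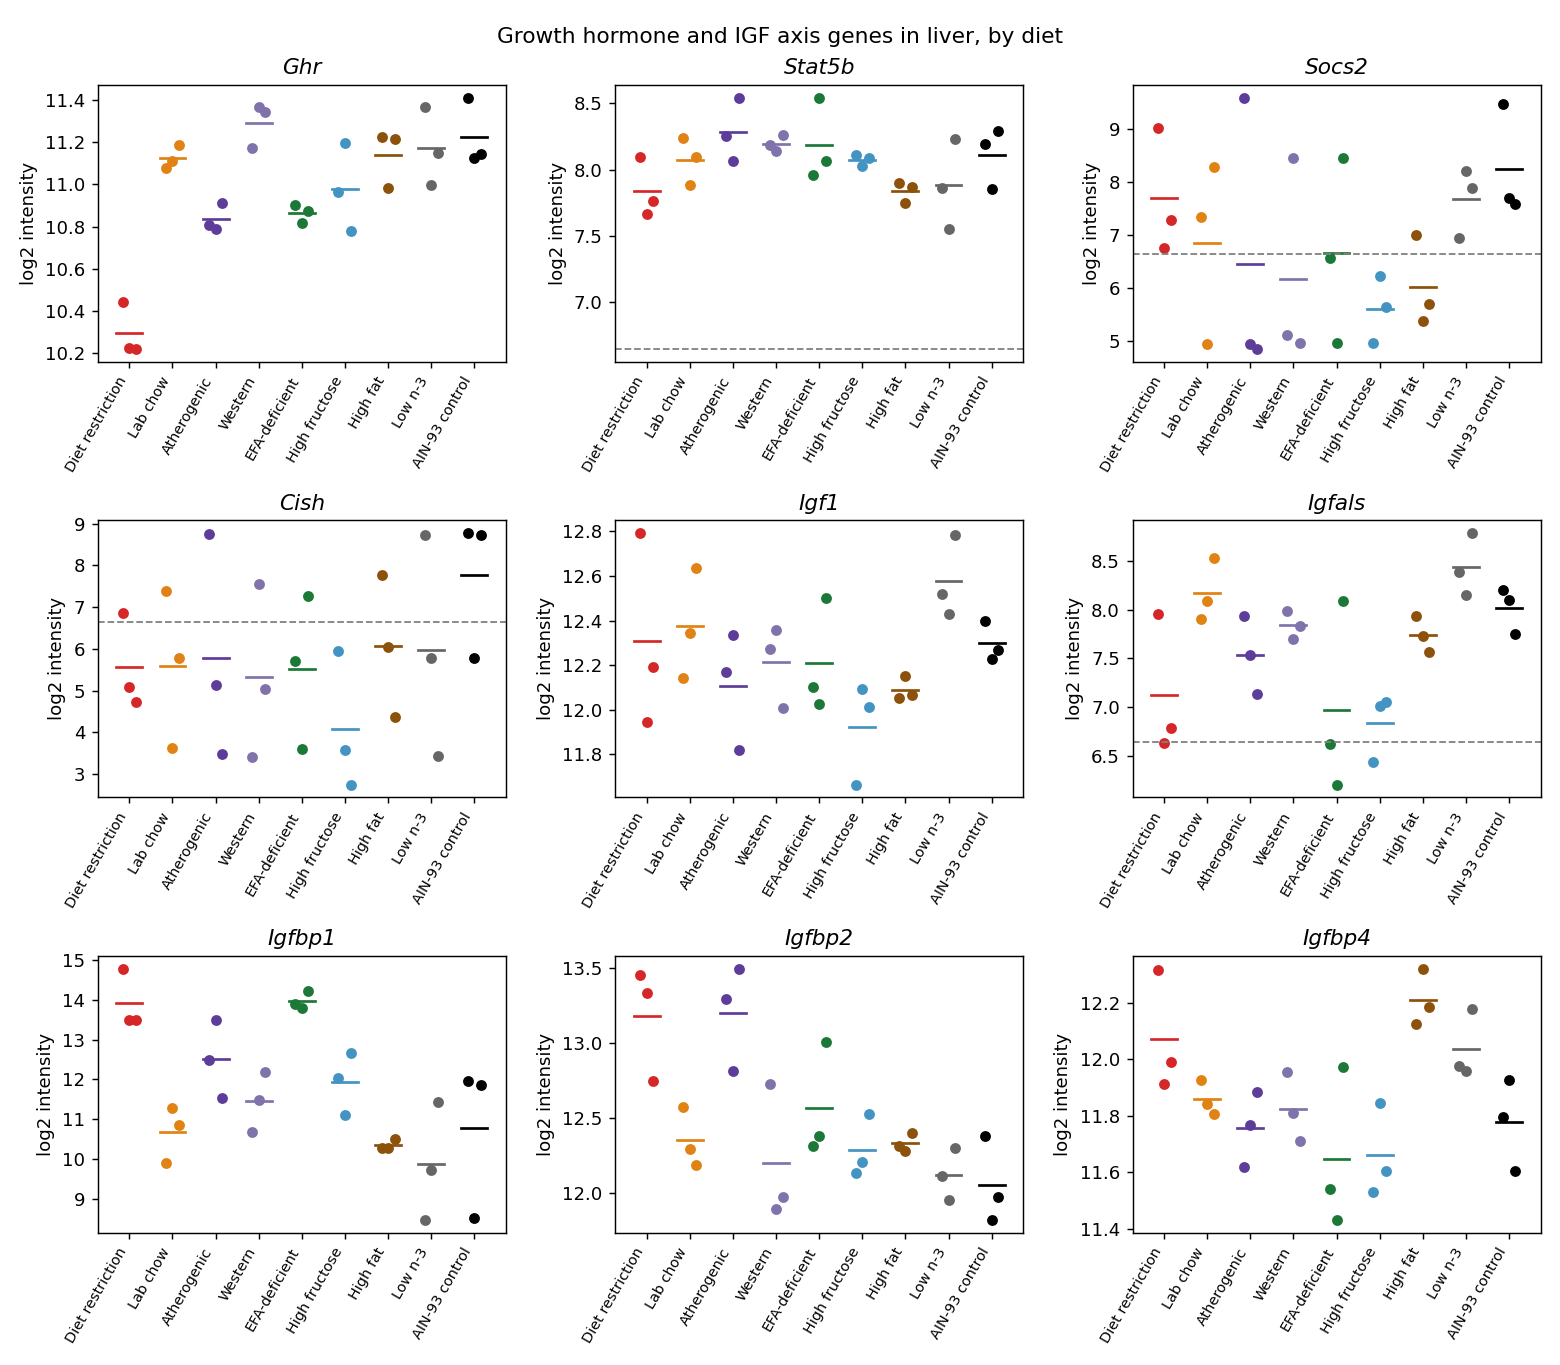
Log2 intensity of the 9 genes in each of the 27 livers, by diet. Each point is 1 mouse, each bar a diet mean (n = 3), each panel has its own vertical range and the dashed line marks the detection level of 6.64. The 3 diet restriction arrays lie below every other array for Ghr, and the Socs2 and Cish points spread widely within most diets.

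Ghr, the receptor through which growth hormone acts, was 52.4% of AIN-93 control in restricted mice. Its log2 levels were 10.44, 10.22 and 10.22 on the restricted arrays, against 11.08, 11.11 and 11.19 on the lab chow arrays and 11.41, 11.12 and 11.14 on the control arrays. Every restricted array lay below every other array of the study. The difference from control was -0.93 log2 (95% confidence interval -1.17 to -0.70, limma adjusted p = 8.95e-06), and that from lab chow, which holds the ingredients fixed, was -0.83 (-1.07 to -0.59, adjusted p = 7.53e-06). It kept its direction and passed the threshold in every alternative run for both comparisons, with adjusted p up to 0.00309 and 0.00199. All 3 Ghr probes were called lower against control, by -1.03, -0.93 and -0.84 log2. The last of these, 1451871_a_at, was dim, with a mean of 5.96 log2 on diet restriction, below the detection level, so its size is less certain. The others averaged 13.04 and 13.42 log2 over all arrays, and the gene levels above average all of them.

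The atherogenic arrays held Ghr at 10.81, 10.79 and 10.91 log2, against 11.17, 11.37 and 11.34 on the Western arrays, and 11.41, 11.12 and 11.14 on the control arrays, with no overlap. That is 76.2% of control (95% confidence interval 64.7 to 89.8, limma adjusted p = 0.0313) and 72.8% of the Western diet (61.8 to 85.7, adjusted p = 0.00724). The call against control was lost without control replicate 1 (-0.30 log2, adjusted p = 0.145), atherogenic replicate 1 (-0.38, adjusted p = 0.0781) or atherogenic replicate 2 (-0.37, adjusted p = 0.0769). The probes differed in size, since 1451501_a_at was -0.63 log2 (adjusted p = 0.00113) and the other two, 1417962_s_at and 1451871_a_at, were not called. The summed Kupffer cell level moved in the same comparison, as given above, with 4 of the 10 detected markers called higher against control and 9 against Western, and its part in the Ghr value was not tested.

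EFA-deficient livers held 10.90, 10.82 and 10.87 log2 of Ghr, also below all 3 control arrays, at 77.8% of control (95% confidence interval 66.0 to 91.6, limma adjusted p = 0.0462). Leaving out any 1 of these 6 arrays took the adjusted p above the threshold, to between 0.0547 and 0.193. On high fructose the 10.96, 11.20 and 10.78 log2 overlapped the control arrays and were not called (adjusted p = 0.186). In order of the diet mean, Ghr ran from Western (11.29 ± 0.11, SD, n = 3) through AIN-93 control (11.23 ± 0.16), low n-3 (11.17 ± 0.19), high fat (11.14 ± 0.14), lab chow (11.13 ± 0.06), high fructose (10.98 ± 0.21), EFA-deficient (10.86 ± 0.04) and atherogenic (10.84 ± 0.07) to diet restriction (10.30 ± 0.13). Neighbours in this order overlapped everywhere except at the last step.

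Restriction and the other diets that lowered Ghr were also set against each other, in comparisons added after the values were seen. Ghr on diet restriction was 67.4% of the EFA-deficient level (95% confidence interval 57.3 to 79.4, limma adjusted p = 0.000361) and 68.8% of the atherogenic level (58.4 to 81.0, adjusted p = 0.00058), so the restricted level was lower than both. Against EFA-deficient, 3 of the 9 genes were called, with Igfbp2 and Igfbp4 higher and Ghr lower, where 21% of all genes were higher and 23.8% lower. Against atherogenic, 0 were higher and 2 lower, Ghr and Stat5b, where 19.7% of all genes were higher and 26.6% lower. Of the 10 detected Kupffer cell markers, 9 were lower in that comparison, and their part in the Ghr and Stat5b values was not tested.

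**Figure D2:**
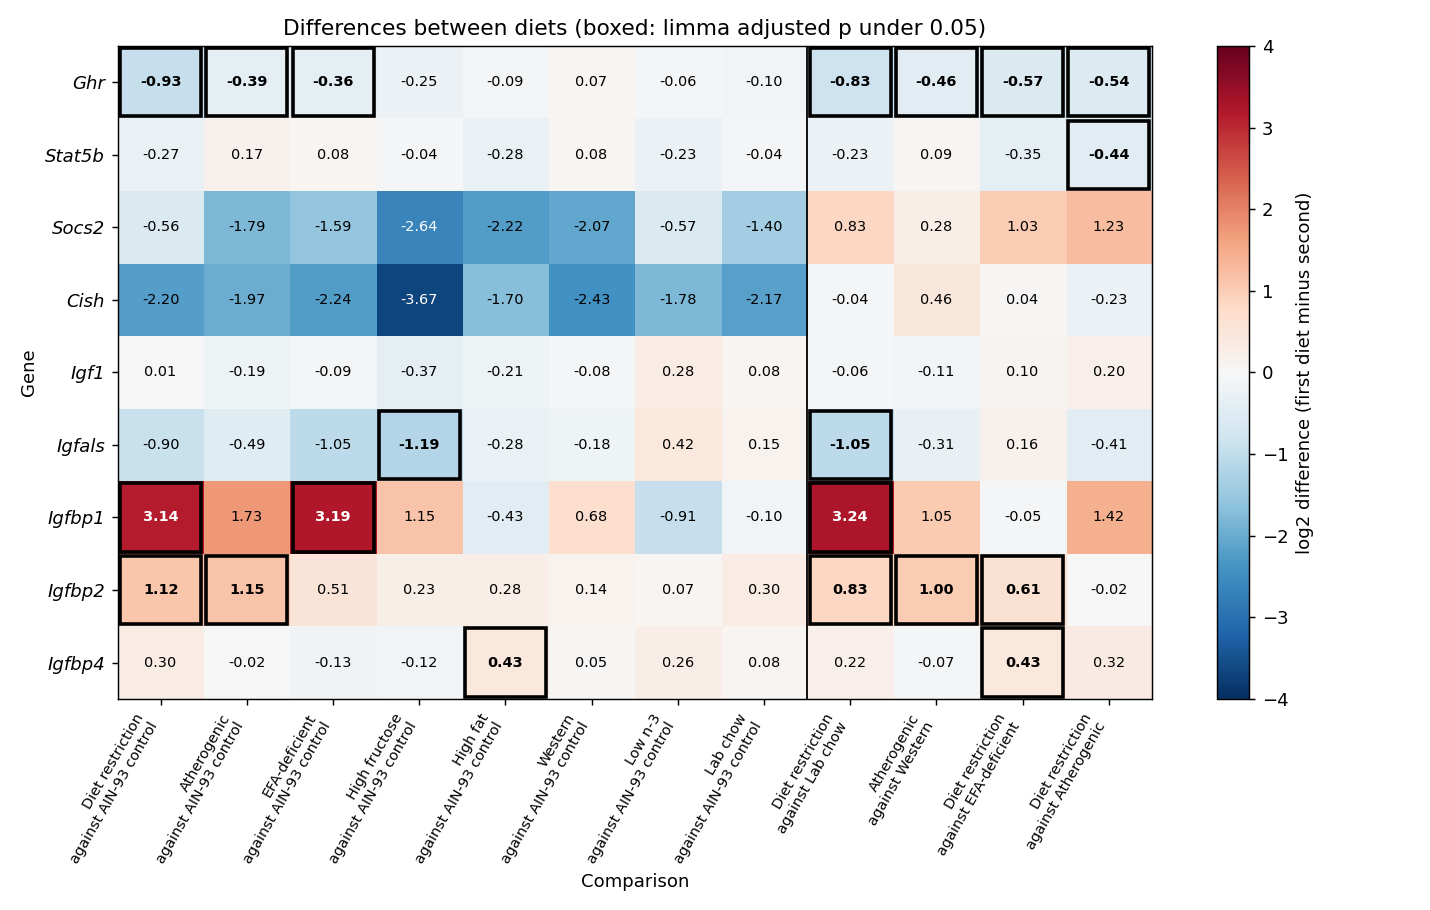
Log2 difference of each gene in 12 comparisons, with the first-named diet minus the second, and boxes around differences with a limma adjusted p under 0.05. The left block sets 8 diets against AIN-93 control and the right block holds the 4 other comparisons. Socs2 and Cish on high fructose are fitted values from arrays below the detection level. Ghr is boxed in 7 of the 12 columns and Igf1, Socs2 and Cish in none.

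Stat5b, the transcription factor that carries the growth hormone signal to the nucleus, lay between 7.55 and 8.54 log2 on all 27 arrays. It was 7.84 ± 0.22 on diet restriction, 8.29 ± 0.24 on the atherogenic diet and 8.11 ± 0.23 on AIN-93 control (SD, n = 3 each). No diet differed from control by limma, and the nearest was high fat with -0.28 log2 (95% confidence interval -0.63 to 0.08, adjusted p = 0.35). Its 1 call was diet restriction against atherogenic, -0.44 log2 (-0.80 to -0.09, adjusted p = 0.037), where the arrays overlapped. That call was lost without atherogenic replicate 1 or 3 or diet restriction replicate 2 or 3 (adjusted p = 0.0652 to 0.175). Only 1 of the 2 Stat5b probes was kept, since 1422102_a_at stayed near the lowest value, and array transcript levels hold no measure of its phosphorylation.

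The feedback inhibitors Socs2 and Cish differed widely between mice of the same diet. Socs2, a suppressor of cytokine signaling that growth hormone induces, was at 9.01, 6.76 and 7.29 log2 on diet restriction, 7.33, 4.94 and 8.28 on lab chow, 9.59, 4.94 and 4.84 on atherogenic, 5.12, 8.44 and 4.97 on Western and 9.46, 7.70 and 7.59 on control. On the atherogenic diet, 1 mouse was thus above all control mice and the other two below all of them. The remaining diets ranged from 4.97 to 8.44 on EFA-deficient, 4.96 to 6.23 on high fructose, 5.38 to 6.99 on high fat and 6.94 to 8.20 on low n-3. High fructose and high fat arrays lay below all control arrays, yet neither difference was called. All 3 high fructose arrays were below the detection level, and the control mean was 3.04-fold above that level. The fitted 95% confidence interval on high fructose was wide, 3.05 to 84.9% of control (limma adjusted p = 0.165). On high fat, with 2 of 3 arrays below the detection level, the difference was -2.22 log2 (adjusted p = 0.251). Diet restriction was 67.7% of control with a 95% confidence interval of 12.8 to 357, which leaves both a fall and a rise of Socs2 possible. Against atherogenic it was 1.23 log2 and not called. Without atherogenic replicate 1, when both other atherogenic arrays lay below the detection level, it was at least 2.06-fold higher and passed (adjusted p = 0.0428). That array was the highest of its diet, so leaving it out had to widen the difference and lends no support to a call.

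Cish, a member of the same inhibitor family and a direct Stat5 target, was at 6.85, 5.08 and 4.73 log2 on diet restriction, 8.74, 5.14 and 3.48 on atherogenic, 8.73, 5.77 and 3.43 on low n-3, and 8.78, 5.78 and 8.73 on control. Its mean passed the detection level on AIN-93 control alone, so it was kept through that diet and had to be highest there. For this reason its lower mean on the other 8 diets supports nothing. The difference was -1.70 to -2.43 log2 on the 7 diets other than high fructose. On high fructose all 3 arrays lay below the detection level, as did 1 of the 3 control arrays, and the 2 diets overlapped. The control mean was 2.17-fold above that level, which sets no lower bound on a fall. None of these differences was called, and high fructose, with 5.95, 3.58 and 2.74 log2, had a limma adjusted p of 0.132. Over the 27 arrays, 9 lay above the detection level for Cish and 15 for Socs2.

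A sequence for the promoter region, 250 bases before to 50 after an annotated start, was held for 8 of the 9 genes, with 13 starts in all (RefSeq, GRCm38.p6). The letters TTCNNNGAA, the core that Stat5 dimers recognise and which reads the same on both strands, occurred in 3 of these 13 windows, from Cish and Igfals, and in 8.3% of 32851 windows of all genes. They are shown because Cish carries 2 of them side by side. The Cish stretch (chr9:107296529-107296683, plus strand) and the Igfals stretch (chr17:24878141-24878230, plus strand) are printed with TTCNNNGAA in capitals, the first Cish match beginning at the annotated start and the Igfals match 58 bases before it.
Cish: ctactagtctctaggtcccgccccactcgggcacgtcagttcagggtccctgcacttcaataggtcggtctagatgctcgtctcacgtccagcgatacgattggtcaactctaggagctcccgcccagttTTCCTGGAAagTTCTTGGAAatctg
Igfals: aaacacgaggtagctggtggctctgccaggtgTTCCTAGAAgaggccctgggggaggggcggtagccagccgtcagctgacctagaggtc
The 2 Cish matches do not overlap each other. A match describes the letters in the window and was not tested for binding.

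The spread of these genes between mice of one diet was set against that of all kept genes, as a description. The pooled SD within diets was 1.99 log2 for Cish, 1.54 for Socs2, 1.02 for Igfbp1 and 0.48 for Igfals, against a median of 0.18 over the 6478 genes. Cish exceeded 99.97% of genes, Socs2 99.9%, Igfbp1 99.4% and Igfals 95.3%. Igfbp2 (0.30), Igf1 (0.24), Stat5b (0.22), Igfbp4 (0.16) and Ghr (0.13) lay among the bulk of genes, and 21.9% of genes varied less than Ghr. Many Socs2 and Cish values lay under the detection level, and the part of low signal in their spread was not tested.

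**Figure D3:**
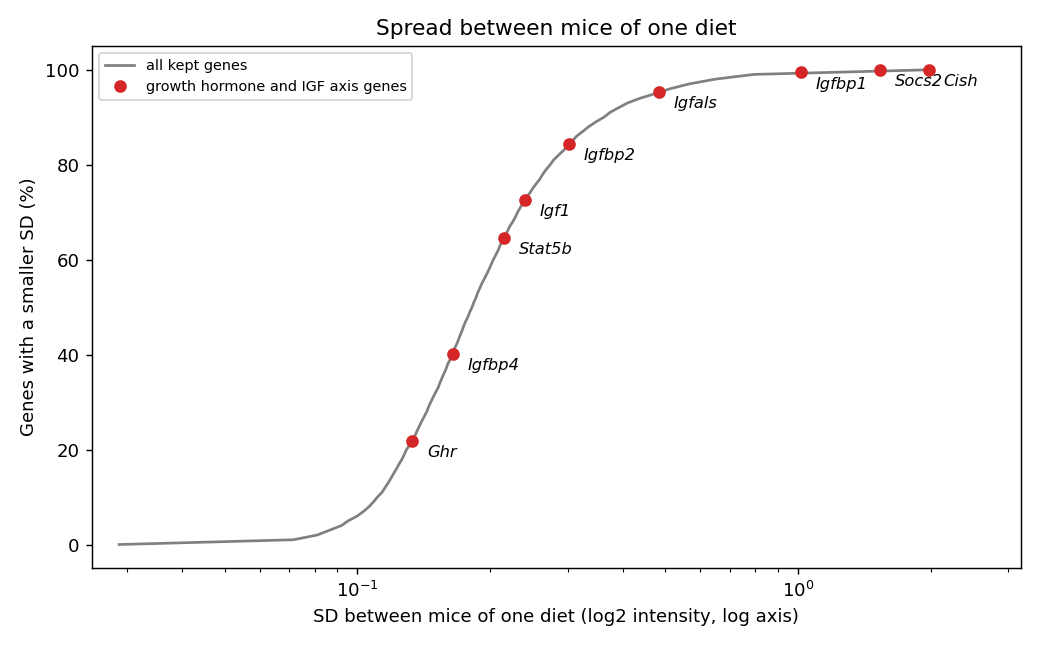
Percent of the 6478 kept genes with a smaller SD between mice of one diet, against that SD in log2 intensity on a log axis. The grey line is all kept genes and red points are the 9 genes of the axis, with Cish, Socs2 and Igfbp1 at the upper end and Ghr at 21.9%.

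Between mice of one diet, Igf1 and Igfals differed in the same direction. Other pairs that passed no longer did with low values set to the detection level. Deviations from the diet mean were correlated over the 27 arrays for 6 pairs, with 100000 permutations within diets, two-sided tests and p adjusted over the 6. Igf1 and Igfals, the hormone and its carrier, had Pearson's r = 0.82 (permutation p = 0.00042, adjusted p = 0.00252) and Spearman's rho = 0.81 (permutation p = 0.00077, adjusted p = 0.00462). The deviations had the same sign on 22 of 27 arrays, and r was 0.76 without the 2 arrays farthest from the median of Igf1. Socs2 and Cish had r = 0.63 (permutation p = 0.00699, adjusted p = 0.021) and rho = 0.55 (permutation p = 0.0187, adjusted p = 0.0374), with r = 0.50 without the 2 arrays farthest from the median of Socs2. For this second pair, 18 of 27 Cish arrays and 12 of 27 Socs2 arrays lay below the detection level. With all such values set to that level, an alternative added after seeing the data, it no longer passed (r = 0.44, permutation p = 0.119, adjusted p = 0.178, and rho = 0.43, permutation p = 0.0979, adjusted p = 0.147). Igf1 and Igfals passed there too (r = 0.82, permutation p = 0.00055, adjusted p = 0.0033, and rho = 0.78, permutation p = 0.0008, adjusted p = 0.0048).

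Socs2 and Igf1 had r = 0.51 (permutation p = 0.0325, adjusted p = 0.0488) and rho = 0.52 (permutation p = 0.0317, adjusted p = 0.0475), and r was 0.55 without the 2 farthest arrays. Igfbp1 and Igf1 gave r = 0.42 (permutation p = 0.0277, adjusted p = 0.0488) and rho = 0.52 (permutation p = 0.0182, adjusted p = 0.0374), with r = 0.41 without the 2 farthest. Neither passed with low values set to the detection level, at r = 0.57 for Socs2 and Igf1 (permutation p = 0.0228, adjusted p = 0.0554) and an unchanged r = 0.42 for Igfbp1 and Igf1 (permutation p = 0.0277, adjusted p = 0.0554), where only the other pairs of the 6 differ. The 2 farthest arrays of both genes were also left out, again after seeing the data. That gave r = 0.47 for Socs2 and Igf1 and 0.31 for Igfbp1 and Igf1. It gave 0.73 for Igf1 and Igfals and 0.60 for Socs2 and Cish. No relation passed for Cish with Igf1 (r = 0.14, permutation p = 0.528, adjusted p = 0.634, and rho = 0.08, permutation p = 0.731, adjusted p = 0.748). The same held for Igfbp1 with Igfbp2 (r = 0.07, permutation p = 0.764, adjusted p = 0.764, and rho = 0.08, permutation p = 0.748, adjusted p = 0.748). The labels give no batch within which these relations could be computed.

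**Figure D4:**
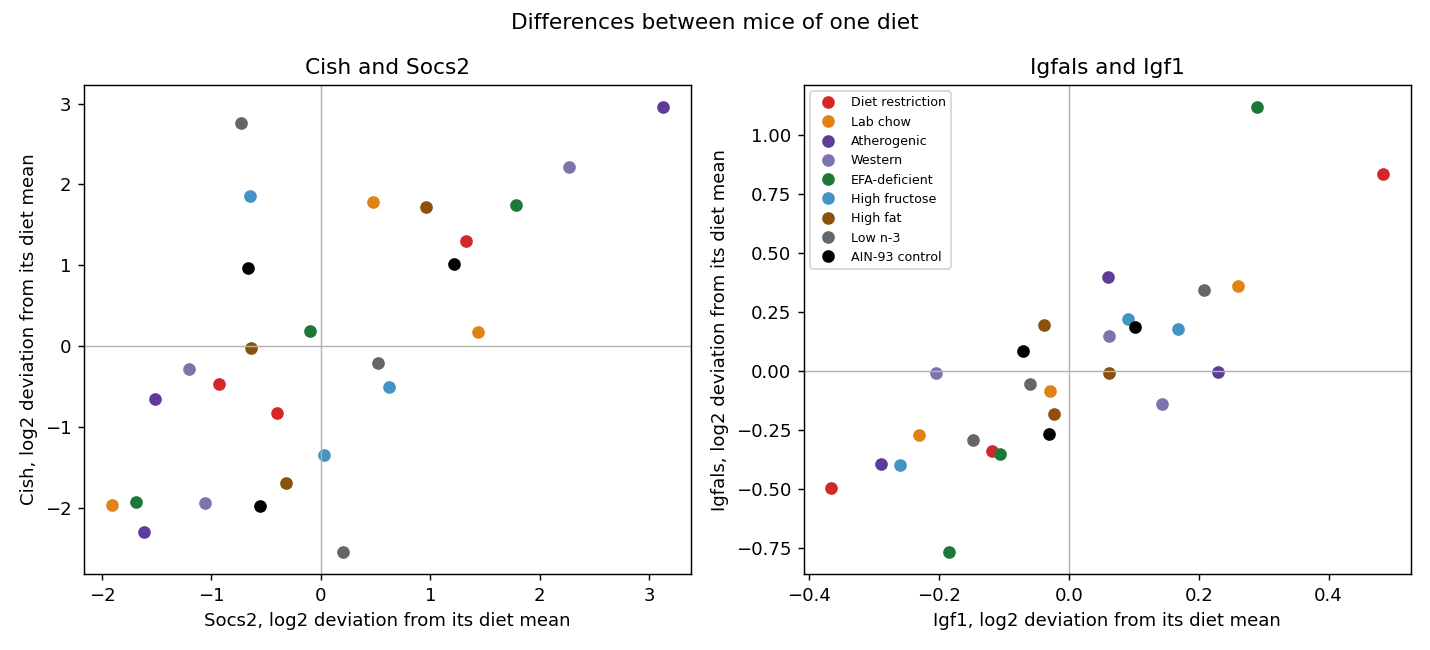
Deviation of each mouse from its diet mean in log2 intensity, for Cish against Socs2 (left) and Igfals against Igf1 (right). Each point is 1 of the 27 mice, coloured by diet, and both clouds rise to the right, with r = 0.63 and r = 0.82. Most Cish values behind the left panel lay below the detection level.

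Igf1, the hormone itself, was not called on any diet. Its log2 levels were 12.79, 11.94 and 12.19 on diet restriction, against 12.14, 12.34 and 12.63 on lab chow and 12.40, 12.23 and 12.27 on AIN-93 control. The 3 restricted mice thus spanned the control range, and the difference from control was 0.01 log2, with a 95% confidence interval of -0.38 to 0.40 and a limma adjusted p of 0.98. In percent of control that interval runs from 76.9 to 132, so a fall or a rise of Igf1 within these bounds remains possible. The interval is not adjusted for the number of genes, so it does not give the size that a call would need. High fructose, with 11.66, 12.09 and 12.01 log2, was lowest at 77.1% of control (95% confidence interval 58.8 to 101, limma adjusted p = 0.233). Low n-3, with 12.52, 12.43 and 12.79 log2, was highest at 121% of control (92.7 to 159, adjusted p = 0.392). High fat held 12.05, 12.15 and 12.07 log2 (adjusted p = 0.554). The arrays of these 3 diets did not overlap the control arrays, but none of the differences passed.

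The 4 Igf1 probes did not move as one on the atherogenic diet. Probe 1419519_at was called lower against control, by -0.64 log2 (limma adjusted p = 0.0405 over probes), whereas 1434413_at and 1437401_at were 0.13 and 0.16 log2 and 1452014_a_at -0.41 log2, none of them called. The gene value averages these, at 87.6% of control, with a 95% confidence interval of 66.9 to 115 (adjusted p = 0.592).

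Igfals encodes the acid-labile subunit that holds Igf1 in its long-lived serum complex. High fructose held it at 6.44, 7.01 and 7.06 log2, against 8.21, 8.10 and 7.75 on control, with no overlap, or 43.9% of control (95% confidence interval 25.9 to 74.6, limma adjusted p = 0.044). Leaving out any 1 of these 6 arrays moved the adjusted p to between 0.0564 and 0.147. On diet restriction 1 of 3 mice differed from the other two, with 7.96, 6.63 and 6.79 log2, against 7.90, 8.09 and 8.53 on lab chow. The difference from lab chow was -1.05 log2 (-1.81 to -0.28, adjusted p = 0.0298), although the arrays overlapped through restricted replicate 1. It was lost without lab chow replicate 2 or 3 or diet restriction replicate 2 or 3 (adjusted p = 0.0552 to 0.134).

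Against AIN-93 control the restricted difference in Igfals was -0.90 log2 (adjusted p = 0.135), and without diet restriction replicate 1 it was -1.31 (adjusted p = 0.0267). EFA-deficient livers showed the same division, with 6.62, 6.20 and 8.08 log2 and -1.05 log2 against control (adjusted p = 0.0749), and without EFA-deficient replicate 3 the other two, both below the detection level, were at least 2.60-fold lower (adjusted p = 0.00195). Each array left out here was the highest of its diet, so leaving it out had to widen the difference and lends no support to a call. In both diets the mouse with high Igfals was also the mouse with the highest Igf1. The highest mean was on low n-3, 8.44 ± 0.32 log2, and the lowest on high fructose, 6.84 ± 0.34, while neighbours in the order of the 9 diets all overlapped.

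Igfbp1, the binding protein that insulin represses, showed the largest differences among the members that passed. Restricted mice held 14.78, 13.49 and 13.48 log2 and EFA-deficient mice 13.90, 13.79 and 14.22, against 9.91, 11.29 and 10.85 on lab chow and 11.96, 8.52 and 11.86 on AIN-93 control. All 6 arrays of the first 2 diets lay above all lab chow and control arrays. Diet restriction was 882% of control (95% confidence interval 293 to 2658, limma adjusted p = 0.0108) and 945% of lab chow (313 to 2847, adjusted p = 0.00224), and EFA-deficient was 912% of control (302 to 2748, adjusted p = 0.00967). These sizes lean on control replicate 2, the lowest of its diet. Without it the differences from control were 2.01 log2 on diet restriction (adjusted p = 0.0809) and 2.06 on EFA-deficient (adjusted p = 0.0729). The difference from lab chow does not use that array and passed in every alternative run, at 2.81 to 3.54 log2 with adjusted p up to 0.016.

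Between the restricted and the EFA-deficient mice the Igfbp1 difference was -0.05 log2, with a 95% confidence interval of -1.64 to 1.54 (limma adjusted p = 0.965), too wide to say that they were alike. The atherogenic arrays, with 12.47, 13.50 and 11.54 log2, were 331% of control (109.7 to 997, adjusted p = 0.171) and overlapped it. In order, the diet means ran from EFA-deficient (13.97 ± 0.22) and diet restriction (13.92 ± 0.75) through atherogenic (12.51 ± 0.98), high fructose (11.93 ± 0.78), Western (11.46 ± 0.75), AIN-93 control (10.78 ± 1.96), lab chow (10.68 ± 0.70) and high fat (10.35 ± 0.13) to low n-3 (9.87 ± 1.49). Each of these neighbours overlapped the next.

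The stretch before the Igfbp1 start (chr11:7197637-7197786, plus strand, GRCm38.p6) is shown because FOXO factors, which insulin inhibits, are known to act on this promoter. The letters TGTTTTG, or CAAAACA on the other strand, are in capitals and begin 108 bases before the start.
Igfbp1: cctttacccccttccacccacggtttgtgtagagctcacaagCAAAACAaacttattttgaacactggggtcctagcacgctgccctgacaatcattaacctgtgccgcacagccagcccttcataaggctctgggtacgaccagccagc
Both strands were searched, and TGTTTTG occurred in 1 of the 13 windows of these genes and in 6.28% of all windows. A related form, TGTTTAC, occurred in 1 of the 13, at an Igfals start, and in 3.65% of all windows.

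Igfbp2, an IGF binding protein secreted by liver, was higher in both restricted and atherogenic mice. Restricted arrays held 13.45, 13.33 and 12.74 log2, against 12.57, 12.29 and 12.18 on lab chow and 12.37, 11.82 and 11.97 on control. Atherogenic arrays held 13.29, 12.81 and 13.49 log2, against 12.73, 11.89 and 11.97 on Western and the same control arrays. Neither diet overlapped the diets it was set against. Diet restriction was 218% of control (95% confidence interval 155 to 305, limma adjusted p = 0.0032) and 177% of lab chow (126 to 248, adjusted p = 0.00848). The atherogenic level was 200.4% of Western (143 to 281, adjusted p = 0.00461). All alternatives against control kept the call for these 2 diets. Fitting the atherogenic and Western arrays alone did not (adjusted p = 0.0775).

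Restricted against atherogenic, Igfbp2 differed by -0.02 log2 (95% confidence interval -0.51 to 0.46). EFA-deficient mice, with 12.31, 12.38 and 13.00 log2, stood between, at 142% of control (102 to 199, limma adjusted p = 0.186), and diet restriction was 153% of their level (109.2 to 214, adjusted p = 0.0381). The last call was lost without diet restriction replicate 1 or 2 or EFA-deficient replicate 1 or 2 (adjusted p = 0.112 to 0.157). Every other diet mean lay between the 12.35 of lab chow and the 12.05 of control. The summed Kupffer cell level was 10.63 to 11.97 log2 on the restricted arrays, 13.16 to 13.98 on the atherogenic arrays and 11.82 to 12.27 on the control arrays. Restricted and control arrays overlapped, and the part of this level in the Igfbp2 values was not tested.

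Igfbp4, which binds IGFs and limits their access to receptors, was 12.12, 12.32 and 12.19 log2 on high fat, against 11.80, 11.93 and 11.61 on control. This is 135% of control (95% confidence interval 111 to 164, limma adjusted p = 0.0445) with no overlap. Fitted one by one, its 5 kept probes were 0.34 to 0.51 log2 higher and none was called (adjusted p = 0.0535 to 0.0743). The call was lost without control replicate 1 or 3 or any 1 of the high fat arrays (adjusted p = 0.0572 to 0.185). Diet restriction, with 12.32, 11.91 and 11.99 log2, was not called against control (adjusted p = 0.181) and was 134% of the EFA-deficient level (111 to 163, adjusted p = 0.0139), a call lost without diet restriction replicate 1 or EFA-deficient replicate 1 or 2 (adjusted p = 0.0568 to 0.0959). Of the 5 probes, 1423757_x_at was called higher on diet restriction against control, by 0.63 log2 (adjusted p = 0.0107), and no other was. Against atherogenic, Igfbp4 on diet restriction was 125% (103 to 151, adjusted p = 0.0597) with no overlap, not called, but it was called with no filter on low signal (0.39 log2, adjusted p = 0.0385) and with arrays centred on their medians (0.36, adjusted p = 0.0357). It was also called without atherogenic replicate 3 (0.38, adjusted p = 0.0497) or diet restriction replicate 2 (0.40, adjusted p = 0.0371). Each of these arrays was the one of its diet nearest the other diet, so leaving it out had to widen the difference. With all arrays, 3 of the 5 probes were called higher on diet restriction against atherogenic.

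Diet restriction against lab chow, the comparison with the same kind of chow on both sides, called 4 of the 9 genes. Igfbp1 and Igfbp2 were higher, where 19.2% of all genes were, and Ghr and Igfals were lower, where 17.6% were. Atherogenic against Western, which differ mainly in cholesterol and cholic acid, called 2, with Igfbp2 higher, where 11.3% of all genes were, and Ghr lower, where 6.5% were. With arrays centred on their medians, that comparison called 547 genes higher and 655 lower, in place of 734 and 421, so its shares by direction turned round. The median log2 difference of the 9 genes was -0.04 against lab chow and 0.09 for atherogenic against Western, beside 0.01 and 0.05 over all genes.

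**Figure D5:**
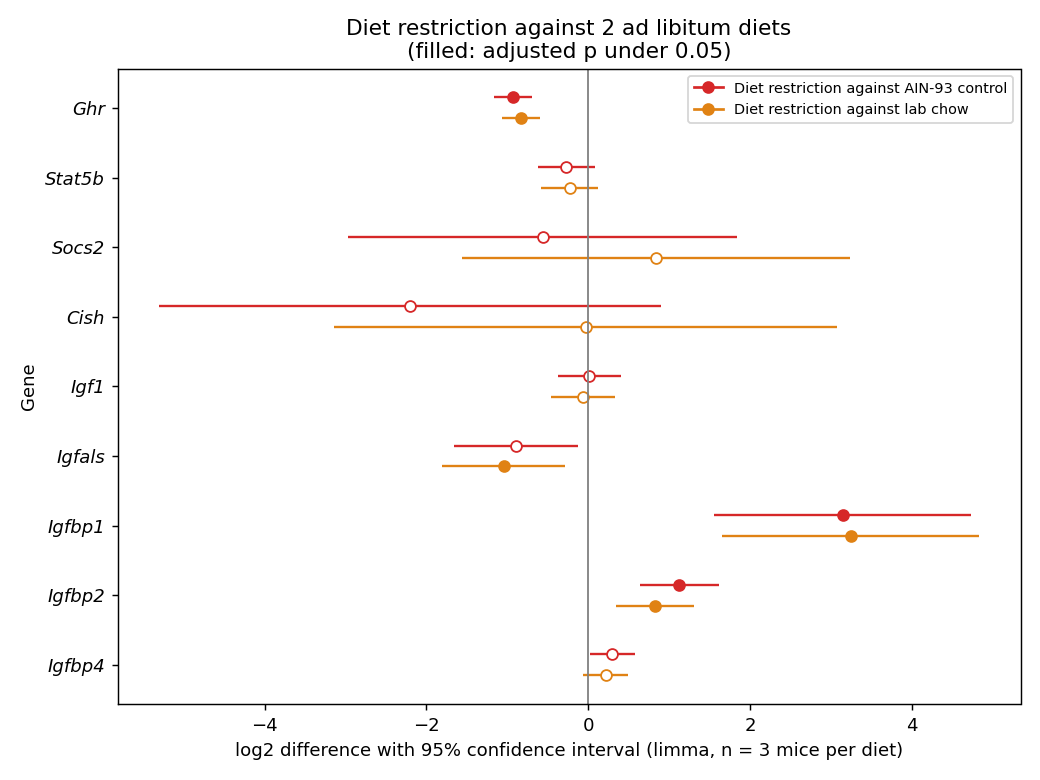
Log2 difference of the 9 genes on diet restriction against AIN-93 control (red) and against lab chow (orange), with 95% confidence intervals from limma (n = 3 mice per diet). Filled points passed an adjusted p of 0.05. Ghr lies left of 0 and Igfbp1 and Igfbp2 right of it against both diets, and the Socs2 and Cish intervals are the widest.

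Other genes of the pathway were read from 3 lists. Of 11 detected genes of growth hormone receptor signaling, 0 were higher and 1 lower on diet restriction against control, beside 13.5% and 16% of all genes. It was Cbl, a ubiquitin ligase that turns over receptors (limma adjusted p = 0.00346), but all of its restricted, lab chow and control arrays lay below the detection level, so no fold is given. Against lab chow 0 were higher and 2 lower, beside 19.2% and 17.6%, again Cbl (adjusted p = 0.0441) and the adaptor Grb2 at 78.2% (adjusted p = 0.0034). High fructose lowered Pik3r1, the regulatory subunit of phosphoinositide 3-kinase, to 49.2% of control (35.5 to 68.2, adjusted p = 0.00518), and the other 6 diets had no call in this list. Atherogenic against Western, 2 were higher, beside 11.3% of all genes, Ptpn1, a phosphatase that acts on Jak2, at 159.5% (adjusted p = 0.0244) and Grb2 at 129% (adjusted p = 0.00605). Jak2 itself was called only for diet restriction against atherogenic, at 70.6% (57.4 to 86.9, adjusted p = 0.00717). In that comparison 0 of the 11 were higher and 5 lower, beside 19.7% and 26.6% of all genes. Of the 10 detected Kupffer cell markers, 9 were lower there, and their part in these values was not tested.

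Of 16 other IGF ligands, receptors, binding proteins and proteases, 5 were detected, and Igf2 and Igf1r were not. The insulin receptor Insr was the 1 call against control, at 149% on diet restriction (95% confidence interval 121 to 185, limma adjusted p = 0.0149), and it was 163% of lab chow (132 to 202, adjusted p = 0.000812). Igfbp3, the partner of Igf1 and Igfals in the serum complex, had diet means between 7.14 and 8.37 log2 and was called only for diet restriction against EFA-deficient, at 42.8% (21.7 to 84.3, adjusted p = 0.0393).

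The last list, named for regulators of the hepatic response to growth hormone, had most calls against control on diet restriction. There 6 of 15 detected genes were higher and 3 lower, beside the 13.5% and 16% of all genes given above. It also holds Ppargc1a, of the fasting response, and the gluconeogenic enzyme Pck1. The list was chosen with earlier results of these data known, so its share is a description. Ppargc1a, a coactivator of the fasting response, was at least 4.30-fold higher (limma adjusted p = 2.41e-05), since all control arrays lay below the detection level. Pck1, a gluconeogenic enzyme, was 623% of control (354 to 1093, adjusted p = 9.65e-05) and Esr1, the estrogen receptor, 334% (173 to 643, adjusted p = 0.017). Foxo1, the transcription factor that insulin keeps out of the nucleus, was 256% of control (199 to 330, adjusted p = 1.83e-05). Diet means of Foxo1 ran from 6.35 to 7.99 log2, the lowest under the detection level, so its percents here and below are less certain. Onecut1, a liver transcription factor that growth hormone induces in rodents, was at least 1.85-fold lower (adjusted p = 0.0252). Diet means ran from 3.40 to 7.53 log2 for Onecut1, which lay below the detection level on 17 of 27 arrays, and from 4.70 to 8.75 for Ppargc1a. Such genes are kept through the diets where they are high, so the Ppargc1a and Onecut1 calls are given as a description. Against lab chow, 7 were higher and 1 lower, beside 19.2% and 17.6% of all genes, with Ppargc1a at least 4.30-fold higher, Pck1 at 287% (adjusted p = 0.00422), Esr1 at 285% (adjusted p = 0.0123) and Foxo1 at 253% (adjusted p = 4.51e-06). On the other diets this list gave at most 1 call against control, among them Hnf4a at 66.6% on EFA-deficient (adjusted p = 0.0259), Klb at 64.6% on atherogenic (adjusted p = 0.0339) and Nr3c1, the glucocorticoid receptor, at 69.7% on high fructose (adjusted p = 0.0421).

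The genes outside the 9 whose level was most like a member's over the 27 arrays are given as a description, since arrays of a diet share that diet. Ghr was most like Ulk2 (Pearson's r = 0.93 over the arrays and 0.51 over deviations from the diet means). Igfbp1 was most like Irf2bp2 (0.93 and 0.87), Igfbp2 like Tm4sf4 (0.82 and 0.61), Igfals like Msrb1 (0.82 and 0.69) and Igfbp4 like Sardh (0.81 and 0.66). Igf1 was most like Sec14l4 (0.77 and 0.67), Stat5b like Btg1 (0.71 and 0.81) and Socs2 like Gtpbp4 (0.68 and 0.65). Cish was most like Onecut1 (0.77 and 0.84), and Onecut1 was also among the 3 most like Socs2 (0.66 and 0.86), so for both inhibitors the likeness to Onecut1 was larger between mice of one diet. Onecut1 lay below the detection level on 17 of 27 arrays, and Cish on 18.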

How the data were processed

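Liver RNA of 27 mice was hybridised to Affymetrix mouse expression arrays. The authors corrected the background and normalized the arrays with GCRMA. Deposited are the resulting log2 intensities, which were not changed further. Of 45101 probes, 34958 list 1 symbol, and 10582 of the 45101 were kept because the mean of a diet passed log2(100), as in the study's methods. Only probes that met both conditions entered gene values. limma 3.58.1 (R 4.3.3, data.table version 1.17.8) was fitted to all 27 arrays with diet as the only factor. P was adjusted by Benjamini and Hochberg over the 6478 genes and 8 diets together, and within the comparison for the other 4, and called at 0.05. Where all arrays of a diet lay below the detection level, a fold sets the mean of the other diet against that level. It takes no account of the spread between arrays, so "at least" refers to means. On artificial arrays with known changes for diet restriction against control over 6478 genes, the fit recovered 80% of 100 changes of 1 log2 and 98% of 100 changes of 2 log2, with 0 of 6278 unchanged genes called. Those arrays held independent normal values with no change on the other diets. They do not give the error rate of the calls on the real arrays, or the recovery for genes as variable as Socs2 and Cish. Named genes are the 9 members, up to 4 called genes per pathway list and comparison, and the nearest genes by correlation. Foxo1 against control lies outside this rule and was named after its values were seen. Members and lists were chosen with earlier results of these data known. Alternatives were p adjusted within each diet, other filters, array centring, quantile normalization again, a trend and robust prior, a replicate block, the brightest probe, only the diets compared, Dunnett's test (multcomp 1.4.28) and each array left out in turn. Restriction against EFA-deficient and against atherogenic, and correlations with low values set to the detection level or without the farthest arrays of both genes, were added after seeing the data. Figures were drawn with matplotlib 3.10.9 (Python 3.11.15, pandas 2.3.3, numpy 2.4.6).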

Additional observations from a re-analysis of the deposited data

How the results depend on the processing

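No result turned its direction across the threshold. Counts of called members kept within 1.5 times of 3 for diet restriction against control, 4 against lab chow and 5 for the F test under every setting other than leaving out an array, where they were 2 to 4, 3 to 4 and 5 to 6. Smaller counts moved. High fructose against control, 1 member, gave 0 with p adjusted within each diet, no filter, quantile normalization again, arrays centred on their medians, only the 2 diets compared, and each array left out (0 to 0). High fat, 1 member, gave 0 with no filter, the replicate block (Igfbp4 0.43 log2, adjusted p = 0.0574), the brightest probe and only the 2 diets compared, and 0 to 1 with an array left out. Atherogenic against control, 2 members, gave 1 with no filter, the brightest probe and only the 2 diets compared, and 1 to 2 with an array left out. EFA-deficient, 2 members, gave 1 with p adjusted within each diet, no filter, quantile normalization again and the brightest probe, 0 with only the 2 diets compared, and 0 to 2 with an array left out. Atherogenic against Western, 2 members, gave 1 with the brightest probe, 0 with only the 2 diets compared and 2 with an array left out. Diet restriction against EFA-deficient, 3 members, gave 1 with only the 2 diets compared and 1 to 3 with an array left out, and against atherogenic, 2 members, gave 1 with quantile normalization again or only the 2 diets compared and 1 to 2 with an array left out. Lab chow, Western and low n-3 stayed at 0 throughout. Among single genes, Igfals for diet restriction against lab chow lost its call with no filter (adjusted p = 0.0915) and with only the 2 diets compared (adjusted p = 0.0649). Ghr for atherogenic against Western lost it with the brightest probe (-0.30 log2, adjusted p = 0.11) and only the 2 diets compared (adjusted p = 0.0509), and Stat5b for diet restriction against atherogenic with no filter (-0.15, adjusted p = 0.563). In the same comparison Igfbp4 gained a call with no filter and with centred arrays, as given above, and Stat5b against EFA-deficient gained one without diet restriction replicate 1 (-0.47, adjusted p = 0.0489). For Stat5b that was the highest restricted array, so leaving it out had to widen the difference. With low values set to the detection level, the relations within diets of Socs2 with Cish (r = 0.44), Socs2 with Igf1 (0.57) and Igfbp1 with Igf1 (0.42) no longer passed. The cause was not tested, except that leaving out arrays or diets lowers the number behind each estimate of spread.

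Same-numbered arrays of different diets had a mean correlation of 0.035 over 108 pairs (-0.27 to 0.41), and differently numbered arrays -0.018 over 216 pairs. Of these, 30 and 42 pairs exceeded 0.1. On every diet but Western, Cish of replicate 1 lay above its diet mean and Cish of replicate 2 below it. Whether a replicate number stands for a shared batch or order was not tested, and a mean over all genes cannot decide it for single genes. The replicate block changed no other call. Over all genes, the fit of only the 2 diets called 2 genes instead of 253 on high fructose, 2 instead of 357 on EFA-deficient, 78 instead of 569 on Western, 102 instead of 273 on lab chow, 394 instead of 605 on high fat, 578 instead of 966 on atherogenic, 0 instead of 69 on low n-3 and 436 instead of 1155 for atherogenic against Western. Adjustment within each diet called 40, 192, 144 and 0 on high fructose, EFA-deficient, lab chow and low n-3, and no filter called 155 on high fructose, 397 on high fat and 372 on Western. Quantile normalization again split the calls into 113 higher and 134 lower on high fructose, 506 and 507 on atherogenic, 42 and 35 on low n-3 and 555 and 570 for atherogenic against Western. Leaving out an array lowered the count by over 1.5 times on high fructose (117 to 141 without its replicate 1 or 3 or control replicate 1 or 3), lab chow (149 to 175, its replicate 2 or 3 or control 2 or 3), high fat (340 to 384, its replicate 1 or 2 or control 3), Western (328 to 360, its replicate 2 or control 2 or 3), EFA-deficient (148 without control 2 and 215 without its replicate 2), low n-3 (34, its replicate 3 or control 3), atherogenic (627, control 3) and atherogenic against Western (749, Western 3). Sizes for Socs2 and Cish, often under the detection level, are less certain than for Ghr.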
